A study of Mus musculus with 32 samples.

Results

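The stretch of mouse chromosome 7 from 100 to 110 Mb (mm9) was examined because its transcripts leaned toward the paternal allele in the adult preoptic area. Its members are all single nucleotide polymorphisms (SNPs) in that stretch with a mean of at least 5 reads per pool. They numbered 752 of 951 listed in the preoptic area, 668 of 864 in the prefrontal cortex and 1201 of 1600 in the embryonic brain. Over the whole tables, 123499, 107179 and 214200 SNPs met the same minimum. In all, 1355 positions were members in at least one tissue and 546 in all 3. The maternal shares in the preoptic area are the values that chose the window, so they are given as a description and nothing is read from tests on them.

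The study crossed 2 inbred mouse strains in both directions: CAST/EiJ (CAST), of wild-derived Mus musculus castaneus, and the laboratory strain C57BL/6J (B6). F1i mice had a CAST mother and a B6 father, and F1r mice had a B6 mother and a CAST father. Polyadenylated RNA was sequenced from whole brain at embryonic day 15 and from the microdissected preoptic area and medial prefrontal cortex of mice aged 5 weeks. Each adult tissue had 4 pools, a male and a female pool of each cross, with RNA of 8 to 10 individuals in each. Each embryonic pool held RNA of 4 to 5 individuals, with 1 pool per cross. No mutation, transgene or drug was part of the design. The labels do not say whether the preoptic and prefrontal pools came from the same animals. All pools were sums over technical replicates made by the authors, so the replicate here is the pool.

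In an F1 animal every autosomal gene carries 1 allele from each parent, and a base that differs between the strains tells which allele a read came from. At an imprinted gene, marks set in the parental germ lines silence the copy from a particular parent, so the favoured strain switches between the reciprocal crosses. A difference in regulatory sequence between strains instead favours the same strain whichever parent gave it. The preoptic area is a hypothalamic region known for its part in parental and sexual behaviour.

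The SNPs below show what was counted. They are the deepest member of each 1 Mb bin that held a member in all 3 tissues. Each line gives the NCBIM37 (mm9) plus strand with the B6 reference base of the SNP in capitals, 14 bases on each side and the annotation from GENCODE vM1. The deposited genomic tables give reads per strain, not the CAST base.
Fam181b, chr7:100229839-100229867, exon of an annotated pseudogene: gggtttcttctgagAggagagaacgatgg
Odz4, chr7:103991471-103991499, coding exon: tcttgagattcgaaAgggcacccttcatc
Ndufc2, chr7:104548807-104548835, coding exon: ttgggctactgcacGggcctgatggacaa
Pak1, chr7:105059686-105059714, UTR: tcactgaaaccacgCtcatcccagcctca
Rps3, chr7:106628424-106628452, coding exon: tagtagttaacaggGtctccactgtgaat
Pgm2l1, chr7:107425691-107425719, UTR: acaggatgaggaacGggccttgagagcaa
Pde2a, chr7:108658479-108658507, coding exon: gacatcatcttggcTacagacctggcaca
Numa1, chr7:109159516-109159544, coding exon: gccttccctgactcCggccgtaagacccg

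The next lines show the 4 members with the smallest parent-of-origin p in the preoptic area, chosen on that value.
Rps3, chr7:106628472-106628500, coding exon: ttcatggacttggcCctctgtcctcggag
Rab6, chr7:107788233-107788261, UTR: gcctcttccttttcGccttccctgttctt
Plekhb1, chr7:107792863-107792891, UTR: attccatgttttggTtaagggtatgtcct
Pde2a, chr7:108660699-108660727, UTR: tggaggaagctaacTgccaggttgctcag

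The last lines hold a pair of members each, 10 and 6 bases apart, so that a read of 36 bases can cover both. They are the closest such neighbours in these genes on both sides of 70% CAST in preoptic F1r female. They were chosen after their values were seen, to show how neighbouring SNPs differed in a pool.
Pak1, chr7:105059741-105059769, UTR: acttgtttcAggaactccgAcccctcatg
Pde2a, chr7:108648924-108648952, coding exon: acagtgaggaaCagagcTtgcaggtggta

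Reads with a base of either strain numbered 3359236 to 7495005 in the preoptic pools, 5370713 to 7778746 in the prefrontal pools and 11468495 and 13283895 in the embryonic pools. Over all autosomes the CAST share lay between 46.9% and 48.7% in all 10 pools. The window held 18244 to 52499 reads per pool, and the median member had 16 to 18 reads per pool, so single members are imprecise. Of the preoptic members, 363 lay in UTRs, 302 in coding exons, 35 in other exons, 29 in introns and 23 between genes, and 128 lay less than 36 bases from the next member and can share reads with it. Markers followed the dissection: 10 of 14 preoptic and hypothalamic genes were listed in the preoptic area. Their summed RPM (reads scaled to each pool's autosomal total) was 2034 to 2205 there and 280 to 310 in the prefrontal cortex. Galanin, vasopressin and oxytocin were not listed in the prefrontal cortex. Most of the preoptic sum came from Gad2 (1064 to 1140 RPM), Gad1 (553 to 613) and Slc32a1 (187 to 276), genes of GABA neurons in general. Galanin had 13.3 to 41.1 RPM in the preoptic area and oxytocin 105 to 137, so the sum is mainly a measure of GABA neuron genes. The summed level of the 9 cortical excitatory genes was 26.8 to 32.2 RPM in the preoptic area, where 3 were listed, and 1504 to 2365 in the prefrontal cortex, where 7 were listed. The embryonic list gave 1804 and 1838 RPM in the embryonic brain and at most 97.1 in the adult pools. In bulk samples, fewer cells of a type and less RNA per cell cannot be told apart. The list of glial, vascular, blood and other outside cells ran from 5294 to 6039 RPM in the preoptic pools, with 5606 in F1r female, and from 828 to 2333 in the prefrontal pools, with the most in F1r female; its part in the allele shares was not tested.

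In the preoptic area the lean was carried by the F1r pools and mainly by the female one. The median CAST share of the 752 members was 47.9% in F1i male, 49.2% in F1i female, 54.1% in F1r male and 61.9% in F1r female. Read as maternal shares these are 47.9%, 49.2%, 45.9% and 38.1%, a mean of 45.3% ± 4.95 (SD, n = 4). The F1i pools lay closest to even and F1r female farthest from it, so the lean to the father belongs more to 1 direction of the cross than to both. The 738 flanking SNPs at 90 to 100 and 110 to 120 Mb had a mean maternal share of 48.3% ± 2.31 (SD, n = 4).

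Set against its own flanks, the window's maternal share was 2.26 points higher in F1i male and 2.06 points higher in F1i female. It fell by 4.10 points in F1r male and by 12.3 points in F1r female. The average of the 2 crosses was -3.03 points, and without the F1r female pool it was -0.97. As summed reads the CAST share of the window was 47.1%, 47.7%, 54.8% and 63.1% in the same order of pools.

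The depth of both alleles moved in opposite directions while their sum did not. The CAST reads of the window, in RPM, came to 2853 in F1i male, 2893 in F1i female, 3318 in F1r male and 3764 in F1r female. The B6 reads came to 3200, 3168, 2738 and 2198. Together they made 6053, 6061, 6056 and 5963, so the pool with the most CAST reads had the fewest B6 reads and a nearly equal total.

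The F1r female pool held the highest CAST share of the 4 preoptic pools at 373 of 752 members, or 49.6%. This was so at 192 of 738 flanking SNPs (26.0%) and at 21.4% of all autosomal SNPs. On both sides of the read minimum that defines members the values were alike in direction: SNPs with a mean of 5 to under 6 reads had a median CAST share of 66.7% in F1r female (47 SNPs), and those with 4 to under 5 reads, just outside, 60% (53 SNPs).

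By 1 Mb bin, F1r female lay above both F1i pools in each bin with more than 1 member from the one at 100 Mb to the one at 108 Mb. Its median CAST share was 59.3% at 100 Mb (14 SNPs), 81.8% at 103 Mb (15 SNPs), 60% at 104 Mb (155 SNPs), 57.1% at 105 Mb (55 SNPs), 71.1% at 106 Mb (140 SNPs), 62.3% at 107 Mb (161 SNPs) and 62.8% at 108 Mb (110 SNPs). In the last bin, at 109 Mb, it was 51.0% over 101 SNPs, between the values of both F1i pools and beside 50% in F1r male. At 99 Mb it was 50% over 65 SNPs, and at 112 Mb 48.5% over 105 SNPs. The bin at 101 Mb had no member and that at 102 Mb had 1. F1r male was at 60% in the first bin, just above F1r female, and between 50% and 60% in the others with more than 1 member.

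**Figure D1:**
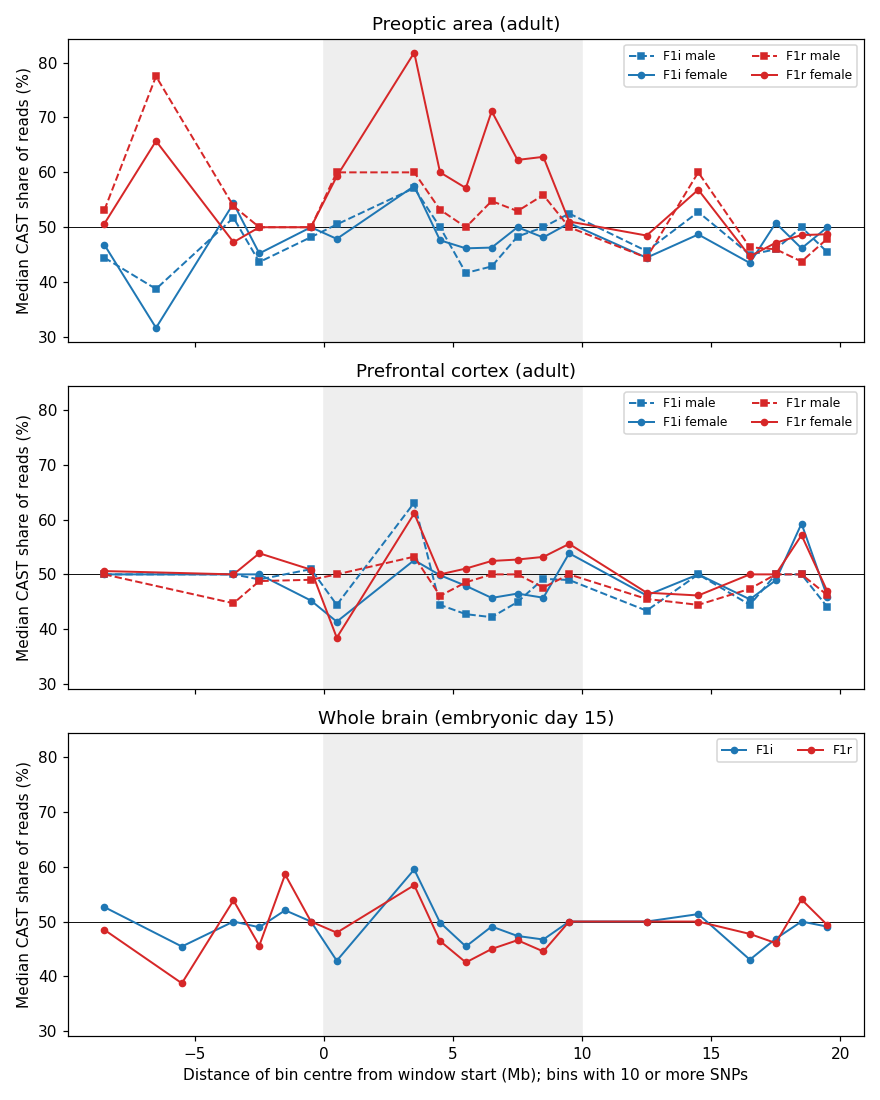
Median CAST share of reads per 1 Mb bin (bins with 10 or more SNPs) against the distance of the bin centre from the window start, for each pool of the 3 tissues; the grey band is the window and the line marks 50%. In the preoptic area F1r female reaches 81.8% and 71.1% inside the window and lies near the other pools in its last bin.

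The same pool was high at other places on the chromosome. In steps of 10 Mb along chromosome 7, the median CAST share of F1r female was 58.3% at 30 to 40 Mb (737 SNPs), 82.6% at 40 to 50 Mb (26 SNPs), 58.1% at 60 to 70 Mb (257 SNPs) and 57.1% at 70 to 80 Mb (293 SNPs). The step at 60 to 70 Mb holds the imprinted genes Snrpn and Ndn, and there the F1i pools were low as well, at 38.5% and 39.2%. At 30 to 40 Mb the F1i pools were at 47.6% and 46.9% and F1r male at 52.9%. From 110 Mb to the end of the chromosome, F1r female had medians of 47.4% to 50%. Among the 241 autosomal steps with at least 100 SNPs, the window had the highest median CAST share in both preoptic F1r pools and the second lowest mean maternal share, after the step with Snrpn and Ndn. This rank holds for the median, the measure that chose the window. As summed reads, the step at 30 to 40 Mb had CAST shares of 55.6% in F1r male and 65.4% in F1r female. The window had 54.8% and 63.1% by that measure, so it was not the highest on the chromosome.

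**Figure D2:**
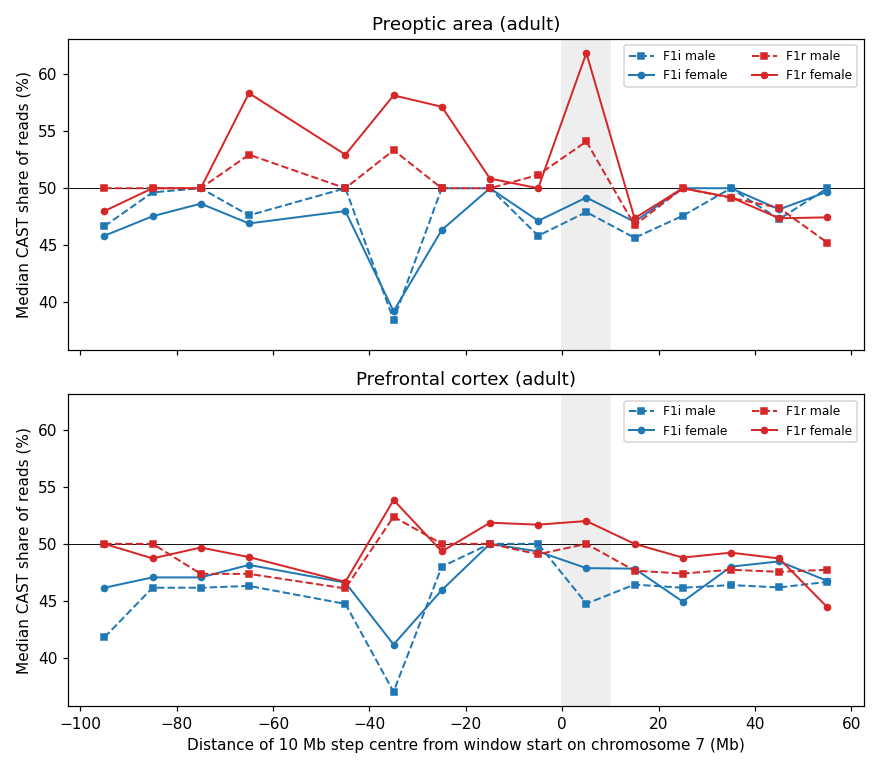
Median CAST share of reads in steps of 10 Mb along chromosome 7 (steps with 100 or more SNPs), as the distance of the step centre from the window start, for the 4 pools of each adult tissue. Preoptic F1r female peaks at 61.9% in the window (grey) and also rises to 58.3%, 58.1% and 57.1% at steps below it, where prefrontal F1r female has 48.8%, 53.8% and 49.3%.

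The 20 genes with the most reads in the window were looked at by role. Signalling genes came first. Arrb1 encodes beta-arrestin 1, which ends signalling of G protein-coupled receptors, and had preoptic CAST shares of 46.9% in F1i male, 48.2% in F1i female, 56.0% in F1r male and 68.8% in F1r female over 34 SNPs. Pde2a, a phosphodiesterase that cyclic GMP stimulates, had 47.2%, 47.6%, 56.2% and 63.3% in the same order. Pak1, a kinase that acts below Rac and Cdc42, had 45.4%, 48.3%, 55.6% and 62.4%. In each of these genes both F1r pools lay above both F1i pools, with F1r female the highest.

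Among genes of the cytoskeleton and membrane traffic, Odz4, a teneurin that spans the neuronal membrane, had preoptic CAST shares of 47.8%, 50.4%, 57.5% and 67.1% over 70 SNPs. Mtap6, which stabilises microtubules, had 46.2%, 47.3%, 54.3% and 66.4%. Rab6, a small GTPase of the Golgi, had 43.2%, 46.4%, 53.9% and 59.6%. In Fchsd2, an F-BAR protein of endocytosis, F1r male at 51.0% lay between the F1i pools at 52.7% and 49.2%, and F1r female stood alone at 62.0%.

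Of the genes for metabolism and protein synthesis, Rps3 of the small ribosomal subunit had the widest range, with preoptic CAST shares of 40.8%, 40.3%, 52.6% and 71.2%. Ribosomal protein genes have near-identical copies elsewhere in the genome, so its reads are uncertain. Ppme1, the methylesterase of protein phosphatase 2A, had 50%, 46.6%, 56.5% and 69.9%. Dgat2, which makes triglycerides, had 41.5%, 44.5%, 51.4% and 64.7%, and Pgm2l1, a sugar phosphate enzyme of brain, 49.4%, 50.4%, 54.6% and 62.7%. Ndufc2, a subunit of respiratory complex I, differed: it had 42.3%, 39.6%, 48.0% and 47.9%, and F1r female did not exceed F1r male.

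F1r female had the highest CAST share in 18 of the 20 genes, and F1r male in Ndufc2 and Numa1, which organises the mitotic spindle. Of the 20, Numa1 lies nearest to the end of the window, and its preoptic shares were 54.0%, 51.1%, 56.1% and 53.5%. The median over the 20 genes was 47.4%, 48.2%, 54.8% and 62.6%. Of all 59 genes with a mean of at least 20 reads per pool, F1r female was highest in 44. Strand is not recorded, and overlapping genes share counts: 8 of the 13 Fam181b members also lie in Gm9934.

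**Figure D3:**
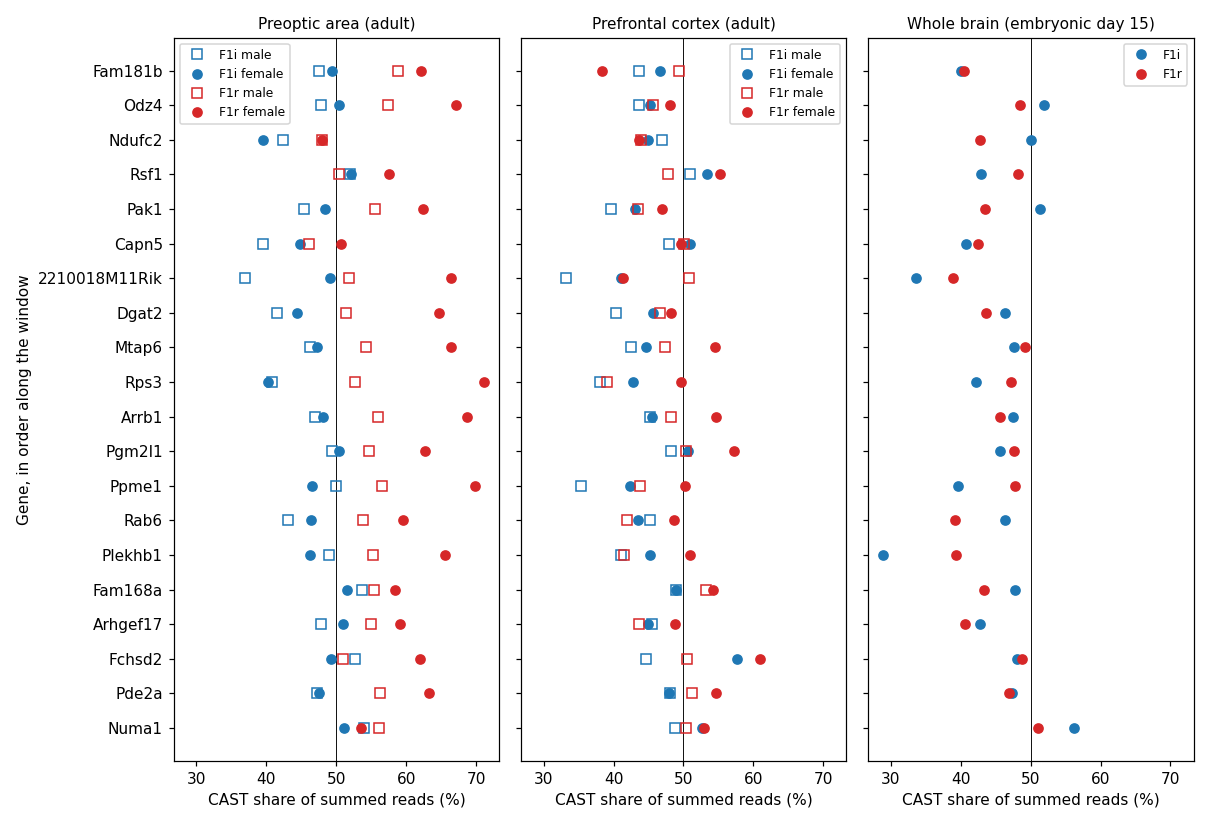
CAST share of summed reads for the 20 genes with the most reads, in order along the window (top to bottom), with 1 point per pool; filled circles are female or embryonic pools and open squares male pools. In the preoptic area F1r female is the highest point in 18 genes and reaches 71.2% in Rps3, while Numa1 at the bottom has its 4 points between 51.1% and 56.1%.

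Members differed among themselves more than these sums show, and they did so within genes. Over the 224 preoptic members with at least 20 reads in each pool, the CAST share in F1r female ran from 21.7% to 93.3%, with quartiles at 47.8% and 77.7%. In F1i female the quartiles were 45.0% and 53.1%. The F1r female values fell around 2 levels: 57 SNPs lay from 40% to 50% and 40 from 50% to 60%, only 19 from 60% to 70%, and 60 from 70% to 80% and 32 from 80% to 90%. In F1i female 91 lay from 40% to 50% and 96 from 50% to 60%, with 8 and 1 in the next steps. Whether the chromosome 7 alleles of this pool are those of the labelled parents was not tested, so its CAST share rests on the labels.

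A CAST share over 70% was found at 94 of the 224 SNPs in F1r female (42.0%), 25 in F1r male (11.2%), 2 in F1i male and 1 in F1i female. Over all autosomal SNPs of that depth the percentages were 3.25 in F1r female, 2.71 in F1r male, 2.40 in F1i male and 1.58 in F1i female. For F1r female the share of SNPs over 70% was 12.9% in the flanks, 16.0% on all of chromosome 7 outside the window and 2.00% on the other autosomes. Of the 32 such SNPs in the flanks, 19 lay among the 66 at 91 to 92 Mb. None of the 62 SNPs at 116 to 117 Mb and none of the 23 at 117 to 118 Mb was over 70%.

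**Figure D4:**
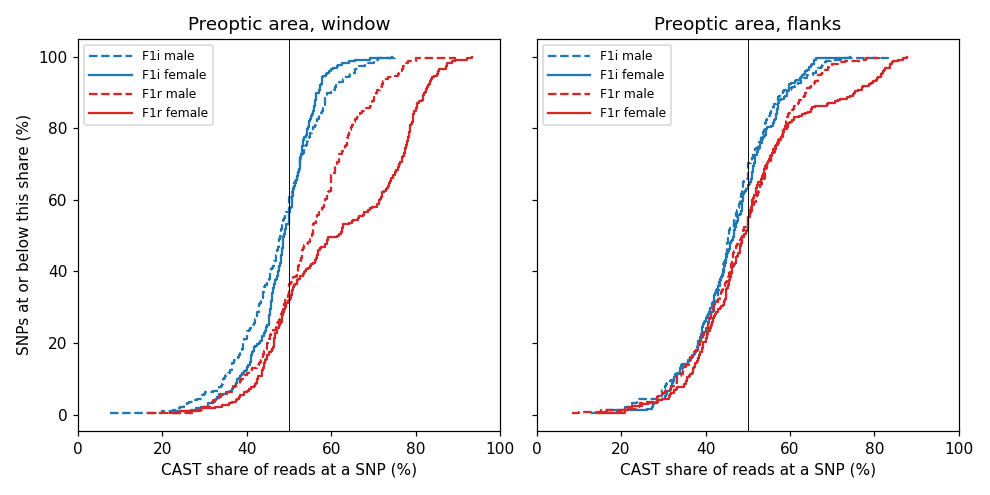
Cumulative percent of SNPs at or below each CAST share, for SNPs with at least 20 reads in each preoptic pool, in the window (224 SNPs) and the flanks (248 SNPs). The F1r female curve of the window rises less between 60% and 70%, where 19 SNPs lie, than over the equal steps on both sides. The F1i curves rise steeply around 50%.

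SNPs of both levels lay side by side. Of the 16 named genes with at least 2 such SNPs, 14 had some over and some at or under 70% in F1r female. In Arrb1 19 of 31 SNPs were over 70% and 8 were at 60% or less, in Odz4 20 and 14 of 39, in Plekhb1 6 and 5 of 11, and in Pak1 5 and 5 of 10. In Numa1 3 of 16 were over 70%. Of 33 adjacent pairs less than 36 bases apart, 18 had 1 SNP over and 1 at or under 70%.

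The pair in Pak1 printed above shows the split. At its first base, position 105059750, the preoptic CAST reads were 57 of 111 in F1i male, 96 of 208 in F1i female, 104 of 163 in F1r male and 175 of 223 in F1r female, the last a share of 78.5% (Clopper-Pearson 95% interval 72.5 to 83.7%). At the second base, 10 bases on, the shares were 48.6%, 50%, 47.0% and 51.9% (44.5 to 59.2% in F1r female). The intervals of both bases did not overlap in F1r female, though reads of this length can cover both.

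In Pde2a the first base of the pair gave 50%, 48.1%, 49.0% and 50.4% (41.6 to 59.2% in F1r female). The second base, 6 bases on, gave 46.3%, 43.0%, 61.8% and 79.0% (70 to 86.4%). Again 1 base was even in every pool and its neighbour was high in the F1r pools alone. These intervals cover counting error only, since the reads carry no molecular identifiers.

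The deepest SNPs printed above fell on both sides as well. In F1r female the CAST share was 79.7% at the Pde2a SNP (74.2 to 84.4%) and 77.7% at the Rps3 SNP (74.3 to 80.9%). It was 46.5% at the Pak1 SNP (41.1 to 52.1%) and 48.4% at the Ndufc2 SNP (42.6 to 54.1%). The Odz4 SNP was over 50% in all 10 pools, with preoptic shares of 63.6%, 56.7%, 84.2% and 87.0% and embryonic shares of 75.7% and 64.8%. At the Numa1 SNP F1r female had 50.4% (41.2 to 59.6%).

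At the 4 SNPs of smallest p both F1r pools lay above both F1i pools, with F1r female the highest. The second Rps3 SNP had preoptic shares of 42.4%, 46.6%, 62.5% and 78.0%, the Rab6 SNP 29.3%, 37.7%, 56.6% and 71.9%, and the Plekhb1 SNP, in a gene for a pleckstrin homology domain protein, 47.6%, 45.6%, 65.1% and 83.2%. The Pde2a SNP had 58.1%, 50%, 76.8% and 82.5%. In the prefrontal cortex the Plekhb1 SNP had 39.6%, 45.3%, 51.6% and 68.5%, so that F1r female was again the highest. The Rab6 SNP had 43.4%, 40.6%, 36.5% and 51.3% there.

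The split found in preoptic F1r female was then followed in the pools it did not use. At the 94 SNPs over 70%, the median CAST share was 50% in F1i male, 48.8% in F1i female and 62.8% in F1r male. At the other 130 it was 46.3%, 48.8% and 49.0%, so F1r male was raised at the first group and even at the second. In the prefrontal cortex, 62 of the first group had 20 or more reads in each pool and their medians were 45.3%, 46.8%, 48.4% and 57.8%, and 86 of the second group had 44.6%, 45.1%, 45.1% and 46.2%. In the embryonic brain the first group had 47.2% and 46.3% and the second 48.1% and 45.0%. The flanks showed the same split. Their 32 SNPs over 70% had a median of 63.1% in preoptic F1r male, and 23 of them had 61.3% in prefrontal F1r female. The other 216 had 46.4%, and 163 of them 50.6%, in the same pools. The split was thus not particular to the window. The groups were cut from the values of 1 pool, so these are descriptions with no test.

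Parent-of-origin calls from edgeR's quasi-likelihood test followed the contrast that chose the window. Of 752 preoptic members 38 were called paternal and 0 maternal at a Benjamini-Hochberg adjusted p under 0.05 with the same parent favoured in both crosses, where 0.495 percent of all 121000 autosomal SNPs were called paternal, 0.345 percent maternal and 0.840 percent in either direction. Of the 738 flanking SNPs 15 were called paternal (2.03%) and 0 maternal. At an unadjusted edgeR p under 0.05 there were 210 members (27.9%), of which 201 had the paternal allele higher. The share under 0.05 was 9.62% of the flanking and 5.22% of all autosomal SNPs. For the members the calls also depended on the fit. DESeq2 with the pools' sizes called 0 members and 401 SNPs over all autosomes, where edgeR had called 1017. With all chromosomes fitted together edgeR called 3 members, and 789 SNPs over all the chromosomes fitted. The 38 lay in 17 genes or overlapping gene pairs, among them 6 in Rps3, 5 in Arrb1 and 3 each in Odz4, Pak1, Plekhb1, Arhgef17 and Pde2a. The called member of largest adjusted p had 0.0476 and the nearest uncalled one 0.0503 in the same edgeR fit.

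The prefrontal cortex was sequenced from separate libraries and gives a measure that the choice of the window did not use. The median CAST share of its 668 members was 44.8% in F1i male, 47.9% in F1i female, 50% in F1r male and 52.0% in F1r female. The mean maternal share was 47.7% ± 2.16 (SD, n = 4). Both F1r pools lay above both F1i pools by a small distance, and F1r female was again the highest. The same order was found outside the window: the flanks had 47.6%, 48.4%, 48.6% and 50%, and the rest of chromosome 7 had 46.2%, 47.1%, 48.3% and 50%. On the other autosomes F1r female was also the highest, with 46.2%, 47.6%, 47.6% and 48.7%.

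The CAST share of the prefrontal window minus that of its flanks was -2.86 points in F1i male, -0.516 points in F1i female, 1.43 points in F1r male and 2.00 points in F1r female. The mean was -1.69 ± 1.66 points in F1i and 1.71 ± 0.404 in F1r (SD, n = 2 each), a difference of -3.40 points (exact permutation test, two-sided p = 0.333). With 6 possible assignments this is the smallest p the design allows, so the test cannot pass a threshold of 0.05. As shares of summed reads the differences from the flanks were -1.41, -0.925, -0.695 and 1.54 points, so that of F1r male changed sign.

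At single prefrontal members no imbalance by parent passed the test. None of the 668 was called by edgeR (background 0.448 percent of 105200 autosomal SNPs, 0.211 percent paternal and 0.237 percent maternal), the smallest adjusted p was 0.160, and 30 (4.49%) had an unadjusted p under 0.05, beside 4.28% of all autosomal SNPs. Of the 30, 27 had the paternal allele higher, as had 2570 of 4499 over all autosomes. DESeq2 called 0, and edgeR with TMM scaling of the allele libraries called 1. Simulated SNPs with a maternal share of 75% were recovered at 53.0% in this fit and those of 60% at 1.0%. All of them had a mean of 20 or more reads per pool, which only 284 of the 668 members had. The recovery among the members as a whole was not simulated. A lean of a few points at single SNPs was thus not detectable even at the greater depth. The median log2 ratio of maternal to paternal reads, on the scale of this contrast, was -0.21 over the members and -0.05 over all SNPs tested.

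F1r female had the highest prefrontal CAST share at 255 of 668 members (38.2%), at 27.0% of the flanking SNPs and at 25.7% of all autosomal SNPs. Among members with 20 or more reads in each pool, both F1r pools lay above both F1i pools at 55 of 198 (27.8%), beside 20.2 percent of all autosomal SNPs and 26.1% of the flanking SNPs. A CAST share over 70% was found at 16 of the 198 in F1r female, 3 in F1r male and 6 in each F1i pool, beside 3.88, 2.88, 3.81 (F1i male) and 2.84 (F1i female) percent of all autosomal SNPs. F1r female was highest in 16 of the 20 named genes, with a median of 50% over them, beside 45.0%, 45.4% and 47.6% in the other pools. Of all 54 genes with a mean of at least 20 reads per pool, F1r female was highest in 36. Arrb1 had 45.3%, 45.6%, 48.3% and 54.7%, Pgm2l1 48.2%, 50.7%, 50.3% and 57.2%, and Ppme1 35.4%, 42.3%, 43.7% and 50.3%. Fam181b went the other way, with F1r female the lowest at 38.3%.

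Of the 38 SNPs called in the preoptic area all were tested in the prefrontal cortex. There 32 had a log2 ratio below 0, with a median log2 of -0.51, beside -0.21 over all members and -0.05 over all SNPs tested. An unadjusted edgeR p under 0.05 was found at 7 of the 38, beside 4.28% of all prefrontal SNPs. In the embryonic brain 33 were tested, 13 had a ratio below 0 and the median was 0.24. There too 7 had an unadjusted p under 0.05, by Fisher's exact test, beside 7.67% of all autosomal SNPs. The difference between tissues was not tested.

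In the embryonic brain the window did not lean to the father. The median CAST share was 48.6% in F1i and 46.6% in F1r, which are maternal shares of 48.6% and 53.4%, and the flanks had 50% in both. By Fisher's exact test on the reads of both crosses, 5 members were called maternal and 2 paternal of 1201, beside 0.515 and 0.372 percent of 209716 autosomal SNPs, or 0.887 percent in either direction. With 1 pool per cross these tests compare the pools, not the crosses. Unadjusted p values under 0.05 numbered 87 (7.24%), beside 7.99% of the flanking and 7.67% of all autosomal SNPs.

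The maternal calls were 2 SNPs of Pak1, the pair printed above, 2 of Rrm1, which encodes the large subunit of ribonucleotide reductase, and 1 of Ndufc2. The Rrm1 SNPs, at positions 109595147 and 109595162, lie within the length of a read, as do those of Pak1. The SNPs of each pair can thus share reads and are not separate observations. At the second Pak1 base the CAST reads were 206 of 319 in F1i (64.6%) and 123 of 304 in F1r (40.5%), with an adjusted p of 4.77e-07 by Fisher's exact test. The paternal calls were 1 SNP each in Arrb1 and in Prkrir. The Arrb1 SNP had 32.6% CAST in F1i and 52.0% in F1r. Rrm1 lies in the last bin of the window, where the median was 50% in both crosses.

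Strain effects, the same strain favoured in both crosses, were near the background in number among the prefrontal and embryonic members. In the prefrontal cortex edgeR called 37 members CAST-higher and 74 B6-higher of 668, beside 5.91 and 12.5 percent of all autosomal SNPs. In the embryonic brain the exact binomial test called 81 and 112 of 1201, beside 6.45 and 10.0 percent. In the preoptic area 98 were CAST-higher and 40 B6-higher of 752, beside 3.87 and 8.77 percent; these come from the same reads as the lean and are a description. Of the preoptic CAST-higher calls, 22 lay among the 63 members in Odz4 alone, 10 in Arrb1 and 8 in Arhgef17.

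The total of reads from both alleles is a measure that the allele shares do not fix. Over the 672 SNPs of the window tested in the 8 adult pools, 0 differed between F1i and F1r by edgeR (background 0.0543 percent of 104917, 0.0372 percent F1i higher and 0.0172 percent F1r higher). The smallest adjusted p by edgeR was 0.936. An unadjusted edgeR p under 0.05 was found at 37 of the 672, beside 5372 of all 104917, a share near the background. Scaling with DESeq2 size factors also gave 0. The median log2 difference of F1i minus F1r was 0.04. In the same fit 314 members differed between the brain regions, 164 higher in the preoptic area and 150 higher in the prefrontal cortex, beside 46.5, 22.7 and 23.8 percent of all SNPs tested, a share near the background.

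By gene the regional differences went both ways. Pgm2l1 was higher in the prefrontal cortex at 27 of 32 members, with a median log2 of -2.01 for preoptic minus prefrontal, and Rab6 at 5 of 7 with -1.38. Plekhb1 was higher in the preoptic area at 7 of 11 members with a median log2 of 1.32, Numa1 at 20 of 27 with 0.99 and Rps3 at 6 of 11 with 0.84. Arrb1 was split, with 12 of 34 members higher in the preoptic area, 10 higher in the prefrontal cortex and a median of 0.14. Members of a gene share its transcripts and are not replicates.

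Known imprinted genes of the same chromosome give a scale for parental bias. Peg3, a zinc finger gene read from the paternal copy, had 0 to 2.89% maternal reads over all 10 pools, and Snrpn, which encodes a splicing protein, 0 to 1.52%. H19, a maternally read noncoding RNA, had 97.5% and 99.6% in the embryonic pools. Igf2, a growth factor gene, had 34.0% and 24.5% maternal reads in the embryonic pools and 68.3% to 83.3% in the preoptic pools, there over only 41 to 73 reads. Inpp5f, with a partial bias, had 27.5% to 35.5% in the preoptic area. Its low share was present in both crosses, unlike that of the window, whose 38.1% was the median of F1r female alone. Of the listed imprinted genes, Ndn lies 30.5 Mb below the window and Inpp5f 25.8 Mb above it.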

How the data were processed

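RNA of brain pools was sequenced for 36 cycles after poly(A) selection and random priming, per the labels' protocols. Reads were aligned with Novoalign to mm9, per the submitters' processing notes. The deposited values are counts, made by the authors, of reads with the CAST or the B6 base at each SNP, summed over technical replicates (4 per embryonic and 2 per adult pool). The series has 32 libraries, of which 24 make the 10 pools of F1 brain and the 8 parental ones were not used. In the reads aligned to transcripts each transcript position was counted once, so a genomic position in several transcripts can recur. Base quality, mapping bias and strand cannot be checked in these tables. Positions lay within chromosome 7 of NCBIM37 (152524553 bases), the same build as mm9, and genes came from GENCODE vM1.

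The CAST share is CAST reads over CAST plus B6 reads; the maternal share is the CAST share in F1i and the B6 share in F1r. Members, gene lists and tests were chosen with earlier results of these data known. Named are the 20 genes with most reads over all 10 pools and the SNPs described with their sequence. Adult allele counts of all autosomal SNPs with a mean of 5 or more reads were fitted in edgeR 4.0.16 (R 4.3.3; pool, allele and allele by cross; library size the pool's total), with DESeq2 1.42.0 as alternative. The embryonic tests were Fisher's exact (parent) and exact binomial (strain), with 0.5 added for log2 ratios. Total reads were fitted with TMM scaling, cross, sex and region. P-values were adjusted by Benjamini-Hochberg over all autosomal SNPs. Each was tested on simulated data. Nothing says that the pools of a group share or do not share litters, so the adult p-values measure the spread between these pools. The embryonic tests had 1 pool per cross and hold counting error only. Alternatives were read minimums, thinned SNPs, other flanks, other scalings and leaving out pools; reads aligned to transcripts were added after the data were seen.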

Additional observations from a re-analysis of the deposited data

Results flagged for a closer look

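Pak1 lay on opposite sides of an even share in the embryonic brain and the preoptic area: its mean maternal share was 53.9% over both embryonic pools, each above 50%, and 43.9% over the 4 preoptic pools, each below 50%. The difference was not tested.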

How the results depend on the processing

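No paired analysis was possible because the tables hold sums over technical replicates and the replicate numbers are technical; an allele by sex term, with male and female pools in both crosses, gave 53 preoptic and 0 prefrontal parent-of-origin calls. The median maternal share of the window and its difference from the flanks moved by less than 1 SD between pools under every alternative tried, with 1 exception. The prefrontal difference went from -1.70 to -0.32 points when each gene was counted once. The SD of the difference was 6.87 points in the preoptic area, beside a value of -3.03, and 3.40 in the embryonic brain, beside 1.01. In both, a vanished difference would also have stayed within 1 SD, so this rule does not show that they were stable. The preoptic difference ran from -5.09 points without F1r male to -0.97 without F1r female. The embryonic difference changed sign with the setting, from -0.62 to 1.22 points. The 38 preoptic parent-of-origin calls became 3 with all chromosomes fitted together, 0 under DESeq2 with the pools' sizes or its own factors, and 0 to 0 when a pool was left out; the preoptic strain calls became 59, 10, 9 and 0 to 0. Prefrontal strain calls became 37 and 30 under DESeq2 and 0 to 0 without a pool, and the prefrontal parent-of-origin count became 1 with TMM. Fits without a pool called 0 to 65 SNPs over all autosomes, so they say nothing about the window. Total reads by cross gave 0 to 1 calls and by region 235 to 324 without a pool. Embryonic parent-of-origin calls became 17 by adjusted p alone and 3 with at least 60% from the favoured parent in both crosses. Apart from the forms of leaving out a pool, the causes were not tested. Median members of 16 to 18 reads limit statements on single SNPs.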
